A study of Mus musculus with 16 samples.

Results

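The genes described are the potassium channel subunits of the mouse, taken as every gene row whose symbol is Kcn followed by letters and a number. The rule found 92 of the 45706 gene rows, and 65 of these had a mean of at least 1 CPM, the count scaled to library size, over the 16 libraries. Hypothalamic tissue was used for bacTRAP, a method that tags ribosomes with a GFP-labelled L10a protein and captures them on antibodies to GFP, so that the pulldown holds ribosome-bound RNA of cells with Cre activity. The transgene was ROSA-STOP-L10a-bactrap, whose fusion protein is made in PNOC neurons, cells that express prepronociceptin. One genotype was Pnoc Lepr deletion, in which the leptin receptor gene is deleted in these neurons, and the other was Control (Lepr-flox). Both genotypes carried the tagged ribosome, had a C57Bl/6N background, were fed chow and were sampled random fed at 12 weeks of age per the treatment protocol and 10 to 12 weeks per the extraction protocol.

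Each library came from the pooled tissue of 4 animals, and each pool gave a pulldown library and an input library from the same lysate. The groups were pulldown of Lepr-deletion pools 5 to 8, pulldown of control pools 1 to 4, input of pools 5 to 8 and input of pools 1 to 4. Since a library averages 4 animals, the spread within a group is that between pools and not that between single animals. Library totals were 64435952 to 78623636 estimated counts. Levels of one gene across libraries are given as TMM-scaled CPM and levels between genes as TPM, a transcript abundance that divides by gene length. Differences are log2 fold changes ± standard error (SE) from edgeR's quasi-likelihood test, and a gene was called at a Benjamini-Hochberg adjusted p under 0.05 over all genes tested.

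Checks of the labels gave the following. Lepr had 2.42, 2.54, 2.82 and 2.68 CPM in Lepr-deletion pulldown, against 1.86, 1.42, 1.64 and 1.55 CPM in control pulldown, and was thus not lower in the libraries labelled as deleted (log2 fold change 0.71 ± 0.12, adjusted p = 0.0386, edgeR). Lepr was called lower in pulldown than in input, with log2 fold changes of -1.22 in Lepr-deletion pools and -1.42 in control pools. In input its difference between genotypes was 0.49 and was not called. A gene-level total does not show whether the floxed part was removed. Pnoc was higher in pulldown than in input by 1.68 ± 0.12 on the log2 scale in both genotypes. Of 14 pan-neuronal markers 13 were higher in pulldown, and of 10 GABAergic markers 9, in both genotypes. All markers tested of astrocytes (12), oligodendrocytes (10), their precursors (7), microglia (10), vessels (9) and tanycytes or ependyma (7) were lower in pulldown in both genotypes. Glutamatergic markers were split, with 2 higher and 4 lower of 6 in Lepr-deletion pools and 2 higher and 3 lower of 5 in control pools. Of 4 choroid plexus markers tested, 2 were lower in pulldown and 2 were not called in either genotype.

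Potassium channels let potassium leave or enter the cell along its gradient, set the resting potential and end action potentials. Voltage-gated (Kv) pore subunits assemble in fours, and modifier subunits that form no channel alone join some of them. Auxiliary subunits change trafficking and gating. Inward rectifiers include the G protein-gated GIRK channels, which opioid, nociceptin and GABA type B receptors open to silence neurons. Tandem-pore (K2P) channels carry leak current, and calcium- or sodium-activated channels shape the afterhyperpolarisation. Glial cells use inward rectifiers of their own to buffer extracellular potassium.

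Per length, the auxiliary and Kv pore subunits made up most of the channel RNA in pulldown, and in input too. Auxiliary subunits held 39.1% of the summed TPM of the 92 genes in Lepr-deletion pulldown and 38.0% in control pulldown, and Kv pore subunits held 33.7% and 34.1%. In the inputs of those pools auxiliary subunits held 34.3% and 32.9%, and Kv pore subunits 29.4% and 30.2%. Inward rectifiers held 11.7% in Lepr-deletion pulldown and 12.3% in control pulldown, against 20.7% and 21.6% in input. In pulldown, tandem-pore subunits held 7.55% and 7.71%, calcium- or sodium-activated subunits 5.69% and 5.67%, and Kv modifiers 2.01% and 1.95%, in the same order of genotypes.

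Kcnip4, a calcium-binding partner of Kv4 (Kcnd) channels, was the most abundant subunit transcript in pulldown. Its level was 250, 227, 246 and 247 TPM in Lepr-deletion pulldown and 275, 261, 254 and 251 TPM in control pulldown. It was also the most abundant in input, averaging 80.3 TPM in Lepr-deletion pools and 84.7 TPM in control pools. Kcnip1, of the same family, followed with 147 ± 3.71 TPM in Lepr-deletion pulldown and 148 ± 7.4 TPM in control pulldown (SD, n = 4 each). Further down, the levels of Kcna2 and Kcnj3 lay close together and their order changed with genotype. Kcna2, an axonal delayed rectifier, had 64.5 ± 6.3 TPM in Lepr-deletion pulldown and 71.2 ± 3.39 TPM in control pulldown (SD, n = 4 each). Kcnj3, a partner in most neuronal GIRK channels, had 59.8 ± 4.31 TPM and 73.2 ± 2.88 TPM, in the same order of genotypes. These levels did not differ from each other beyond the spread between libraries in either genotype. Kcnc1, a fast delayed rectifier of high-frequency firing, averaged 51.2 TPM in Lepr-deletion pulldown and 59.2 TPM in control pulldown.

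**Figure D1:**
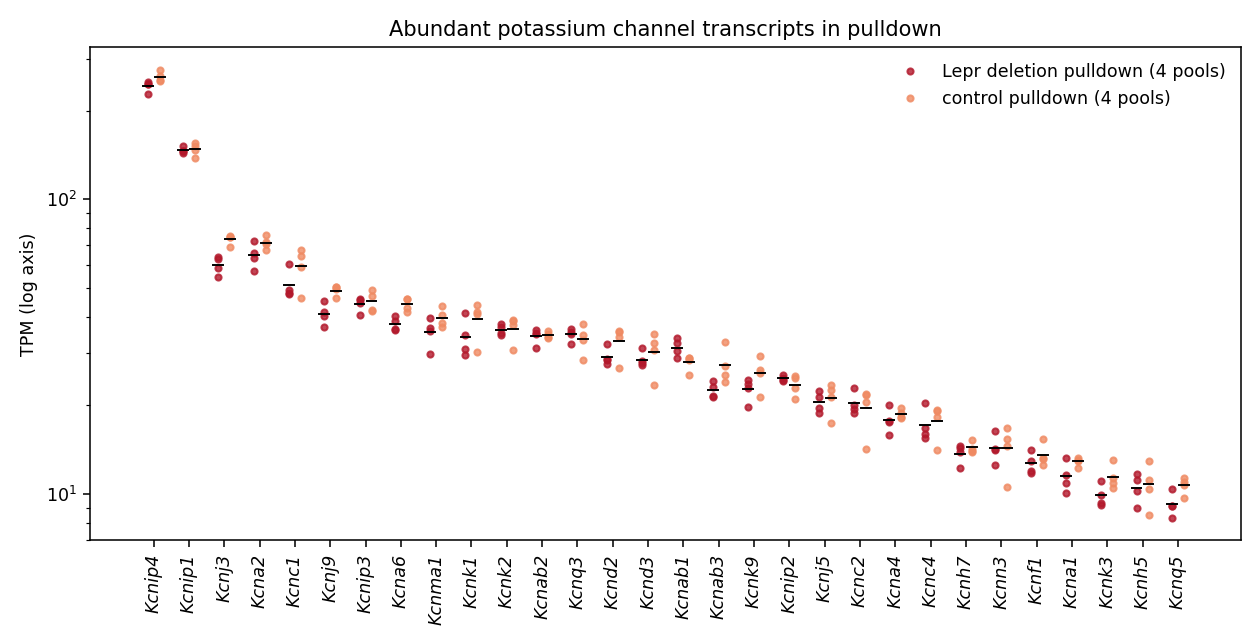
TPM on a log axis of 30 potassium channel genes, ordered by their mean in control pulldown, with 1 point per pool (4 Lepr-deletion pools left, 4 control pools right of each pair) and a bar at the mean. Kcnip4 and Kcnip1 stand above the others at 242 and 147 TPM in Lepr-deletion pulldown and 260 and 148 TPM in control pulldown, and the points of both genotypes overlap for most genes.

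The 27 genes under 1 CPM had means of 0.000668 to 0.876 CPM, and 13 of them were under 0.1 CPM. They included all genes of the Kcne family, single-span accessory subunits, and Kcnj11, the pore of the ATP-sensitive channel, at 0.59 CPM. The members nearest the limit were Kcng4 and Kcnj4 at 1.14 and 1.15 CPM inside it, and Kcnk6 at 0.876 CPM outside it.

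The comparison of pulldown with input asks which channel genes hold a larger or smaller share of the ribosome-bound RNA of PNOC neurons than of the RNA of the whole lysate. Among the 65 genes, 31 were higher in pulldown, 11 lower and 23 not called in Lepr-deletion pools. In control pools 30 were higher, 15 lower and 20 not called. Over all genes tested, 28.8% were called higher and 32.8% lower in Lepr-deletion pools, and 30.1% higher and 34.6% lower in control pools. Among genes of at least 1 CPM, 35.5% were higher and 30.5% lower in Lepr-deletion pools, and 37% higher and 32.6% lower in control pools. The median log2 fold change of the 65 genes was 0.20 in Lepr-deletion pools and 0.22 in control pools, against 0.05 over all genes of at least 1 CPM in both.

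Both genotypes called 26 genes higher, which is 83.9% of the genes called in Lepr-deletion pools and 86.7% of those called in control pools, and both called 10 lower. The same overlap was not counted over all genes tested, so it is not shown to be particular to channel genes. These calls rest on TMM scaling, since input libraries held 27.6% to 32.5% mitochondrially encoded counts and pulldown libraries 0.0819% to 0.112%. Scaled by library totals, which moves the median of all genes to 0.44 in Lepr-deletion pools and 0.53 in control pools, 50 genes were higher and 3 lower in Lepr-deletion pools and 50 higher and 4 lower in control pools. On that scale 57.4% of all genes were higher and 19.7% lower in Lepr-deletion pools, and 60.9% higher and 19% lower in control pools. Fewer cells of a type and less RNA per cell cannot be told apart in such bulk samples.

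**Figure D2:**
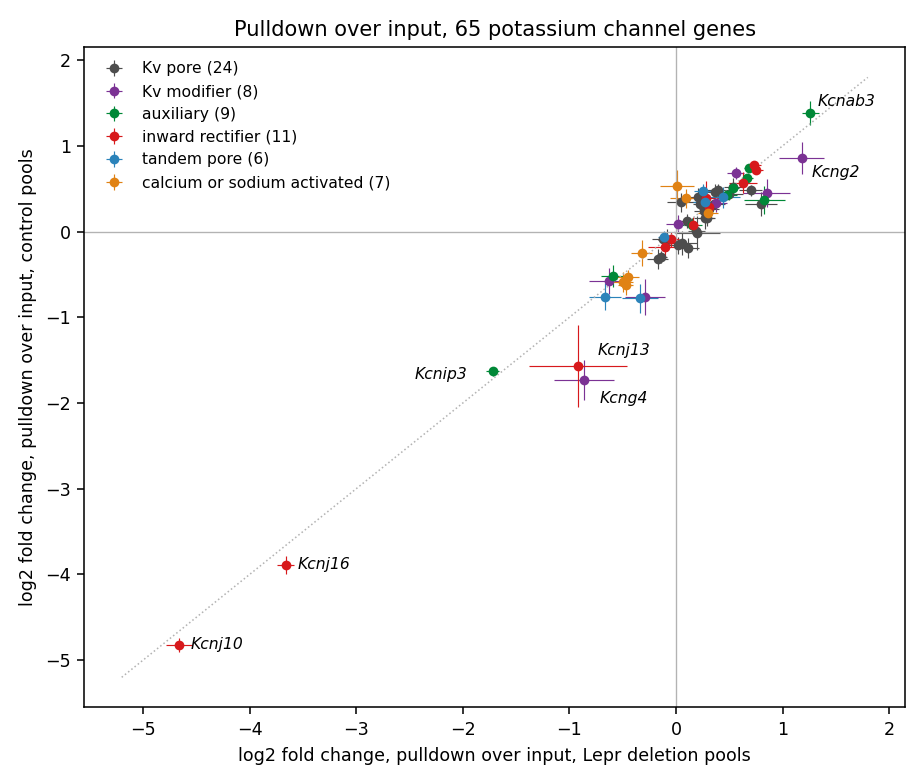
Log2 fold change of pulldown over input in Lepr-deletion pools (x axis) against control pools (y axis) for the 65 genes, coloured by class, with bars of 1 SE and a dotted line of equality. Kcnj10 at -4.66 and -4.82 and Kcnj16 at -3.66 and -3.89 lie far below the rest, and Kcnab3 at 1.26 and 1.38 lies highest.

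Among the Kv pore subunits, 12 of 24 were higher in pulldown and none lower in Lepr-deletion pools, and 11 were higher and 2 lower in control pools. Kcnq3, a subunit of the M-current that restrains repetitive firing, had 167, 154, 160 and 165 CPM in Lepr-deletion pulldown and 199, 162, 169 and 175 CPM in the inputs of those pools. Its control values were 139, 156, 162 and 174 CPM for pulldown and 184, 202, 178 and 205 CPM for input. The groups overlapped in Lepr-deletion pools, where Kcnq3 was not called (log2 fold change -0.14 ± 0.06) except with pool as a block (adjusted p = 0.0237, edgeR). They did not overlap in control pools, where it was called lower (-0.30 ± 0.07) but had the other sign by library totals (0.25) and in limma on log2(TPM + 1) (0.64). Kcnq5, of the same family, was called higher in both genotypes, by 0.39 ± 0.10 in Lepr-deletion pools and 0.48 ± 0.08 in control pools.

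The Kcnc genes, fast delayed rectifiers, were called higher in pulldown for 4 of 4 genes in Lepr-deletion pools and 3 of 4 in control pools, Kcnc2 being the exception at 0.16 ± 0.13, where it was called with pool as a block (adjusted p = 0.00308, edgeR). Kcna2 was higher by 0.36 ± 0.10 in Lepr-deletion pools and 0.32 ± 0.04 in control pools, and Kcna4, an inactivating A-type subunit, by 0.70 ± 0.11 and 0.48 ± 0.06. Kcna6 and Kcna1 are neighbours separated by 62.5 kb on chromosome 6, and Kcna6 was higher in pulldown by 0.23 ± 0.07 in Lepr-deletion pools and 0.32 ± 0.05 in control pools, while Kcna1 had -0.12 ± 0.10 and -0.09 ± 0.05 and was not called, except in Lepr-deletion pools with pool as a block (adjusted p = 0.0478, edgeR). Of the Kcnd genes, the A-type channels that Kcnip subunits join, only Kcnd3 in Lepr-deletion pools was called (0.29 ± 0.07), and an antisense gene overlaps it. With pool as a block it was also called in control pools (0.16, adjusted p = 0.00167, edgeR). Kcnd2 had 0.10 ± 0.07 in Lepr-deletion pools and 0.12 ± 0.08 in control pools, and in control pools it was called with pool as a block (adjusted p = 0.0111, edgeR).

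Of the Kcnh genes, the ether-a-go-go family, Kcnh6 was called higher in Lepr-deletion pools only (0.80 ± 0.15, against 0.32 ± 0.14 in control pools) and Kcnh2 in control pools only (0.40 ± 0.11, against 0.21 ± 0.09 in Lepr-deletion pools). With pool as a block Kcnh2 was called in Lepr-deletion pools too (adjusted p = 0.0125, edgeR), and Kcnh6 in control pools was still not called. The difference between genotypes was not called for either gene. Kcnh7, the most abundant Kcnh transcript, had 0.19 ± 0.08 in Lepr-deletion pools and 0.01 ± 0.05 in control pools, and in Lepr-deletion pools it was called with pool as a block (adjusted p = 0.00555, edgeR).

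Kv modifier subunits were split by gene. Of 8, 4 were higher and 2 lower in Lepr-deletion pools, and 4 higher and 3 lower in control pools. Kcng2, a silent partner of Kcnb channels, had 2.35, 2.38, 2.70 and 2.24 CPM in Lepr-deletion pulldown and 1.23, 0.719, 0.846 and 1.46 CPM in the inputs. In control pools it had 3.41, 3.25, 2.22 and 2.80 CPM in pulldown and 2.03, 1.31, 1.31 and 1.72 CPM in input. All pulldown libraries lay above the input libraries of their genotype (log2 fold change 1.18 ± 0.21 in Lepr-deletion pools and 0.86 ± 0.19 in control pools). Kcng4, of the same subfamily, went the other way, with 0.748 ± 0.201 CPM in Lepr-deletion pulldown against 1.36 ± 0.485 in input, and 0.572 ± 0.0789 CPM in control pulldown against 1.88 ± 0.494 in input (SD, n = 4 each). Its log2 fold change was -0.86 ± 0.28 in Lepr-deletion pools, where it was 0.02 in limma on log2(TPM + 1), and -1.73 ± 0.23 in control pools. Kcnf1 was higher by 0.56 ± 0.08 and 0.68 ± 0.07 and Kcnv1 by 0.38 ± 0.10 and 0.33 ± 0.10, in the same order of genotypes. Kcng3 was called lower in control pools (-0.76 ± 0.21, but 0.12 in limma on log2(TPM + 1)) and not in Lepr-deletion pools (-0.29 ± 0.19), and Kcns2 was called in neither genotype (0.02 ± 0.11 and 0.09 ± 0.10).

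Auxiliary subunits held the highest and one of the lowest fold changes. Of 9, 6 were higher and 2 lower in Lepr-deletion pools, and 5 higher and 2 lower in control pools. Kcnab3, a cytoplasmic beta subunit of Kcna channels, had 17.5, 17.6, 19.1 and 17.9 CPM in Lepr-deletion pulldown and 8.38, 7.22, 6.89 and 7.31 CPM in input. In control pools it had 27.5, 21.8, 19.4 and 20.0 CPM in pulldown and 10.4, 7.34, 8.94 and 6.90 CPM in input. Pulldown exceeded every input library of its genotype (log2 fold change 1.26 ± 0.08 in Lepr-deletion pools and 1.38 ± 0.14 in control pools), the highest of the 65 genes in both. The other beta subunits rose less in pulldown, Kcnab1 by 0.48 ± 0.09 and 0.43 ± 0.05 and Kcnab2 by 0.54 ± 0.05 and 0.51 ± 0.05, in the same order of genotypes. Kcnab2 overlaps Nphp4, and reads of the pair cannot be told apart without strand.

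The Kcnip genes, which encode related calcium-binding proteins, went in opposite directions, and Kcnip2 was not called. Kcnip4 was higher in pulldown by 0.67 ± 0.05 in Lepr-deletion pools and 0.63 ± 0.04 in control pools, and Kcnip1 by 0.69 ± 0.05 and 0.74 ± 0.04. Kcnip3, which is also described as the transcriptional repressor DREAM, had 33.3, 32.7, 33.2 and 33.2 CPM in Lepr-deletion pulldown and 120, 102, 98.3 and 113 CPM in input. In control pools it had 36.5, 34.8, 32.6 and 32.8 CPM in pulldown and 107, 105, 101 and 105 CPM in input. The groups were far apart (log2 fold change -1.72 ± 0.06 in Lepr-deletion pools and -1.63 ± 0.05 in control pools), and the ratio of Kcnip1 to Kcnip3 counts was 2.9 to 3.01 in Lepr-deletion pulldown and 0.469 to 0.606 in its input, against 2.67 to 3.16 in control pulldown and 0.537 to 0.602 in its input.

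Among the beta subunits of the large-conductance calcium-activated channel, Kcnmb4 was lower in pulldown (-0.59 ± 0.11 in Lepr-deletion pools and -0.52 ± 0.13 in control pools, where it was 0.03 by library totals), it changed sign in limma in both genotypes, and antisense genes overlap it. Kcnmb2 was called higher in Lepr-deletion pools (0.83 ± 0.19) and in control pools with pool as a block alone (0.37 ± 0.16, and adjusted p = 0.0432 with the block, edgeR). Kcnmb1, the smooth-muscle beta subunit, was under 1 CPM, with 3, 3, 2 and 0 counts in Lepr-deletion pulldown and 60, 65, 59 and 96 in its input, against 4, 4, 3 and 6 counts in control pulldown and 48, 48, 66 and 63 in control input. It lies within the span of Kcnip1, which was higher in pulldown.

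Of 7 pore subunits grouped as calcium- or sodium-activated, 1 was higher and 4 were lower in Lepr-deletion pools, and 3 were higher and 3 lower in control pools. Kcnu1, which was among those higher in control pools, was placed in this group by family and not by what activates it. Kcnma1, the pore of the large-conductance channel, was higher by 0.30 ± 0.09 in Lepr-deletion pools and 0.22 ± 0.08 in control pools. The small-conductance channel Kcnn3 was lower by both contrasts, with 33.8 ± 2.77 CPM in Lepr-deletion pulldown against 46.4 ± 3.29 in input, and 34.0 ± 5.48 CPM in control pulldown against 51.5 ± 6.64 in input (SD, n = 4 each). Its log2 fold change was -0.47 ± 0.07 in Lepr-deletion pools and -0.62 ± 0.12 in control pools, but it was 0.43 and 0.35 in limma on log2(TPM + 1), where all genes of at least 1 CPM had medians of 0.85 and 0.92. Kcnt1, a sodium-activated channel, had -0.50 ± 0.10 and -0.59 ± 0.12 and also changed sign on that scale. Kcnu1, known from sperm, was called higher in control pools only (0.53 ± 0.19, against 0.01 ± 0.16 in Lepr-deletion pools), at a mean of 2.12 CPM.

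Of 6 tandem-pore genes, 3 were higher and 1 lower in Lepr-deletion pools, and 3 higher and 2 lower in control pools. The higher ones were Kcnk1, Kcnk3 and Kcnk9 in both genotypes, with log2 fold changes of 0.27 ± 0.11, 0.25 ± 0.08 and 0.44 ± 0.16 in Lepr-deletion pools and 0.35 ± 0.09, 0.47 ± 0.08 and 0.40 ± 0.12 in control pools. In Lepr-deletion pools the call was lost for Kcnk1 in 5 and for Kcnk9 in 4 of 8 fits with 1 library left out. Kcnk3 and Kcnk9 encode acid-sensitive leak channels. Kcnk10, a mechanosensitive and lipid-gated leak channel, was lower by both contrasts (-0.67 ± 0.15 in Lepr-deletion pools, and -0.76 ± 0.16 in control pools, but 0.16 and 0.15 in limma on log2(TPM + 1)). Kcnk13, known from microglia, was called lower in control pools (-0.78 ± 0.17, against 0.11 in limma on log2(TPM + 1)) and not in Lepr-deletion pools (-0.34 ± 0.17).

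Inward rectifiers spanned the widest range of the 6 classes. Of 11, 5 were higher and 2 lower in Lepr-deletion pools, and 4 higher and 3 lower in control pools. Kcnj10, the main astrocytic inward rectifier, had 7.61, 8.65, 10.0 and 12.5 CPM in Lepr-deletion pulldown and 238, 234, 237 and 265 CPM in input. In control pools it had 10.8, 9.99, 8.62 and 11.3 CPM in pulldown and 282, 276, 277 and 303 CPM in input. The log2 fold change was -4.66 ± 0.12 in Lepr-deletion pools and -4.82 ± 0.08 in control pools. Kcnj16, which forms channels with Kcnj10, fell with it in pulldown, by 3.66 on the log2 scale in Lepr-deletion pools and by 3.89 in control pools. The 12 astrocyte markers had medians of -4.06 in Lepr-deletion pools and -4.42 in control pools. The list of 8 channels known from glia, vessels or choroid plexus, which holds both genes, had none higher in pulldown and 4 lower of 6 tested in Lepr-deletion pools, and none higher and 5 lower of 7 tested in control pools.

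Each of these glial genes has a neighbour that went the other way. Kcnj9, a GIRK subunit, lies 11.9 kb from Kcnj10 on chromosome 1 with no protein-coding gene between them and on the opposite strand, so that their starts face each other. Kcnj9 had 68.5, 56.8, 59.3 and 60.4 CPM in Lepr-deletion pulldown and 39.5, 36.3, 34.7 and 36.6 CPM in input. In control pools it had 78.9, 75.2, 70.4 and 75.1 CPM in pulldown and 41.6, 43.7, 41.8 and 45.0 CPM in input. The groups did not overlap (0.73 ± 0.07 in Lepr-deletion pools and 0.78 ± 0.05 in control pools). The ratio of Kcnj9 to Kcnj10 counts was 4.83 to 9 in Lepr-deletion pulldown and 0.138 to 0.166 in its input, and 6.64 to 8.17 in control pulldown and 0.147 to 0.158 in its input. Likewise Kcnj2, a classical strong inward rectifier that lies 38.2 kb from Kcnj16 on chromosome 11, was higher in pulldown by 0.31 ± 0.08 in Lepr-deletion pools and 0.29 ± 0.06 in control pools. The pairs were singled out after their values were seen.

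**Figure D3:**
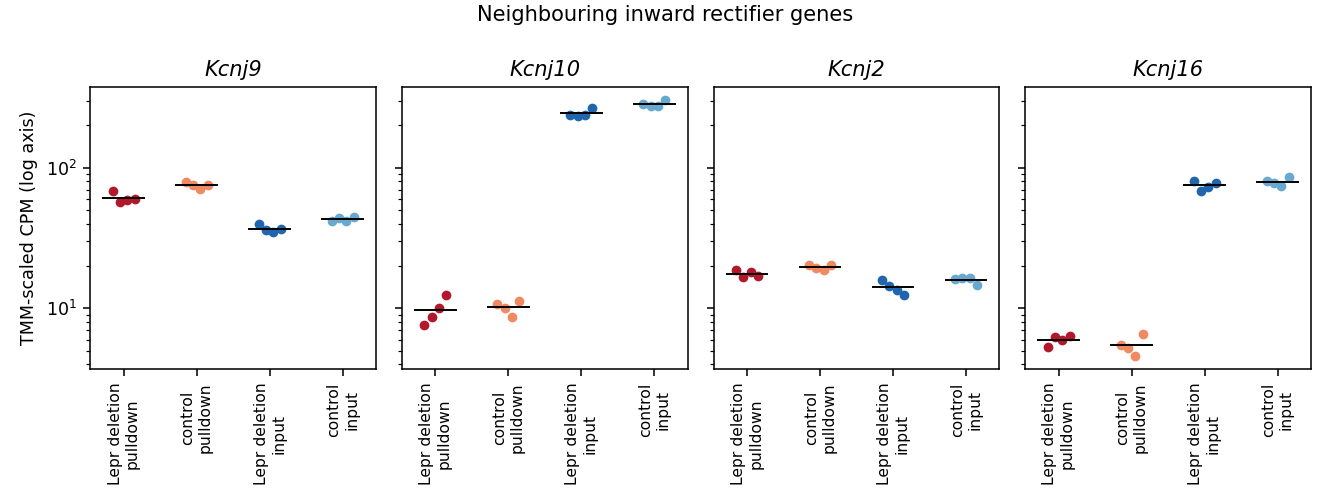
TMM-scaled CPM on a log axis of the neighbouring genes Kcnj9 and Kcnj10 and of Kcnj2 and Kcnj16, with 1 point per pool in each of the 4 groups and a bar at the mean. Kcnj10 averages 9.69 CPM in Lepr-deletion pulldown and 10.2 CPM in control pulldown against 244 and 285 CPM in the inputs of those pools, while Kcnj9 averages 61.2 and 74.9 CPM in pulldown against 36.8 and 43.0 CPM in input.

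The bases before the start of these neighbours, and of Kcnj3, the gene called between genotypes below, are shown because the oppositely placed pair went in opposite directions. The 250 bases before the start were taken from RefSeq (GRCm38.p6), at chr1:172329323-172329572 on the minus strand for Kcnj9, chr1:172340960-172341209 on the plus strand for Kcnj10 and chr2:55435720-55435969 on the plus strand for Kcnj3. The Kcnj3 start used lies inside the annotated span of the gene. Each is written 5′ to 3′ on the gene's strand, and capitals mark matches, on either strand, to the 4 motifs searched: the GC box GGGCGG, the STAT-type palindrome TTCNNNGAA, the core of the cyclic AMP element, TGACG, and the TATA box TATAAA.
Kcnj9: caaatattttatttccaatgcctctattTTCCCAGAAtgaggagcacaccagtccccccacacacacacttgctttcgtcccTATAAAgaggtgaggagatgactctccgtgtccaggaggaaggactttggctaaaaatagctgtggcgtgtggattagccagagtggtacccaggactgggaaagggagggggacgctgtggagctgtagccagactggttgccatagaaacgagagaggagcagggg
Kcnj10: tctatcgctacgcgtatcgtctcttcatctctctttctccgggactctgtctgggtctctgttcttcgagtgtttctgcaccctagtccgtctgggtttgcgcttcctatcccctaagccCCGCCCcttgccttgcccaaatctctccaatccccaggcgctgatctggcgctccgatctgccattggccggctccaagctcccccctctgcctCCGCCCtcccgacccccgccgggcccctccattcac
Kcnj3: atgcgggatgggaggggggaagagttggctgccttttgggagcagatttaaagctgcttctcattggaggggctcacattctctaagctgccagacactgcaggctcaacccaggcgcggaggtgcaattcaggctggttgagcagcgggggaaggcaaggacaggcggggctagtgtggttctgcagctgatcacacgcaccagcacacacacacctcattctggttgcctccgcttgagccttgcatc
The Kcnj9 window held 1 TTCNNNGAA and 1 TATAAA, the Kcnj10 window held 2 GGGCGG, read on the other strand, and the Kcnj3 window held none of the 4. Of 32851 windows of this length, 32.7% held GGGCGG, 7.02% TTCNNNGAA, 17.8% TGACG and 12.4% TATAAA. Guanine and cytosine made up 52.0% of the Kcnj9 window, 62.0% of the Kcnj10 window and 58.4% of the Kcnj3 window, against a median of 52.4% over all windows. A match is a run of letters and not a site shown to be bound.

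The 4 GIRK subunits did not move as one. Kcnj3 had 112, 95.0, 98.8 and 103 CPM in Lepr-deletion pulldown and 67.3, 58.2, 56.3 and 60.4 CPM in input, and 133, 129, 119 and 127 CPM in control pulldown against 78.8, 78.3, 72.9 and 75.0 CPM in control input. Pulldown lay above input in every pool (0.75 ± 0.07 in Lepr-deletion pools and 0.72 ± 0.04 in control pools). Kcnj6, another GIRK subunit, had 13.0 ± 0.951 CPM in Lepr-deletion pulldown and 13.4 ± 0.989 in input, and 12.7 ± 0.588 CPM in control pulldown and 13.3 ± 1.8 in input (SD, n = 4 each), and was called in neither genotype. Kcnj5, best known from the heart and the adrenal gland, was called in Lepr-deletion pools only (0.16 ± 0.06, against 0.08 ± 0.09 in control pools). The ratio of Kcnj3 to Kcnj6 counts was 7.07 to 8.51 in Lepr-deletion pulldown and 4.45 to 4.63 in its input, and 9.33 to 11.3 in control pulldown and 5.22 to 7.25 in its input.

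Genes that work with these channels were taken from lists. Over all genes tested, 28.8% were higher and 32.8% lower in Lepr-deletion pools, and 30.1% higher and 34.6% lower in control pools. Of 15 tested partners of potassium channels, 7 were higher and 2 lower in pulldown in Lepr-deletion pools, and 8 higher and 3 lower in control pools. Hint1, a G protein-signalling partner, was higher by 0.52 ± 0.06 in Lepr-deletion pools and 0.70 ± 0.05 in control pools, and Lrrc55, an auxiliary subunit of the large-conductance channel, by 0.64 ± 0.07 and 0.58 ± 0.06. Ank2, an ankyrin, was lower (-0.62 ± 0.08 and -0.92 ± 0.05), as was Abcc9, a vascular sulfonylurea receptor (-2.41 ± 0.26 and -2.41 ± 0.27). Of 20 receptors and G proteins that couple to GIRK channels, 12 were higher and 2 lower in both genotypes. Gnao1, the most abundant brain G protein alpha subunit, was higher by 0.60 ± 0.04 and 0.62 ± 0.04, and Rgs7, which speeds GIRK closing, by 0.63 ± 0.05 and 0.70 ± 0.08. Gnai1 was higher by 0.34 ± 0.05 and 0.31 ± 0.04, and Oprl1, the nociceptin receptor, which lies outside the naming rule, by 0.39 ± 0.06 and 0.36 ± 0.09. The adenosine receptor Adora1 was lower (-0.81 ± 0.07 and -0.58 ± 0.06).

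Of 11 pumps and cotransporters of potassium, 4 were higher and 6 lower in Lepr-deletion pools, and 3 higher and 5 lower in control pools. The shares higher over all genes tested were 28.8% and 30.1%, and those lower 32.8% and 34.6%, in the same order of genotypes. Among the lower were Atp1b2 (-1.23 ± 0.08 in Lepr-deletion pools and -1.19 ± 0.07 in control pools), Slc12a2 (-1.29 ± 0.09 and -1.35 ± 0.12) and Slc12a4 (-3.79 ± 0.30 and -4.25 ± 0.29), in the same order of genotypes.

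The comparison of Lepr-deletion with control pulldown asks which channels differ between the genotypes in PNOC neurons. Lepr itself was not lower in the libraries labelled as deleted, as given above. Among the 65 genes, none was called higher and 1 was called lower, the GIRK subunit Kcnj3, while 0.391% of all genes tested were called higher and 0.249% lower. The median log2 fold change of the 65 genes was -0.09, and 51 of them were negative, against a median of -0.01 and 51.7% negative among all genes of at least 1 CPM. At an unadjusted p under 0.05, 2 genes were higher and 15 lower, and 19.8% of all genes tested had such a p. In the same comparison the 12 astrocyte markers were all positive, with a median of 0.19 and none called. Markers of the other cell types had medians from -0.24 for microglia to 0.35 for vessels, and none was called. The median of the pan-neuronal markers was 0.01. The part of these markers in the channel values was not tested. DESeq2 called 3 genes lower, Kcnj3, Kcnj9 and Kcnh2, where it called 2.72% of all genes lower.

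The Kcnj3 values given above did not overlap between genotypes, with 112 CPM as the highest of Lepr-deletion pulldown and 119 CPM as the lowest of control pulldown (log2 fold change -0.30 ± 0.06, adjusted p = 0.0487, edgeR). The call was lost on leaving out any of pools 6, 7, 8, 2, 3 or 4, with adjusted p of 0.106 to 0.196, and it was not made on rescaled counts or in limma on TPM (adjusted p = 0.0973 and 0.0877). Kcnj9 did not overlap either, with 68.5 CPM as the highest of Lepr-deletion pulldown and 70.4 CPM as the lowest of control pulldown, and its log2 fold change was -0.28 ± 0.06 (adjusted p = 0.0673, edgeR). Kcnj6 at 0.05 ± 0.07 and Kcnj5 at -0.06 ± 0.09 were not called. The nociceptin receptor Oprl1 had -0.02 ± 0.07, and none of the 20 receptors and G proteins was called by edgeR.

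**Figure D4:**
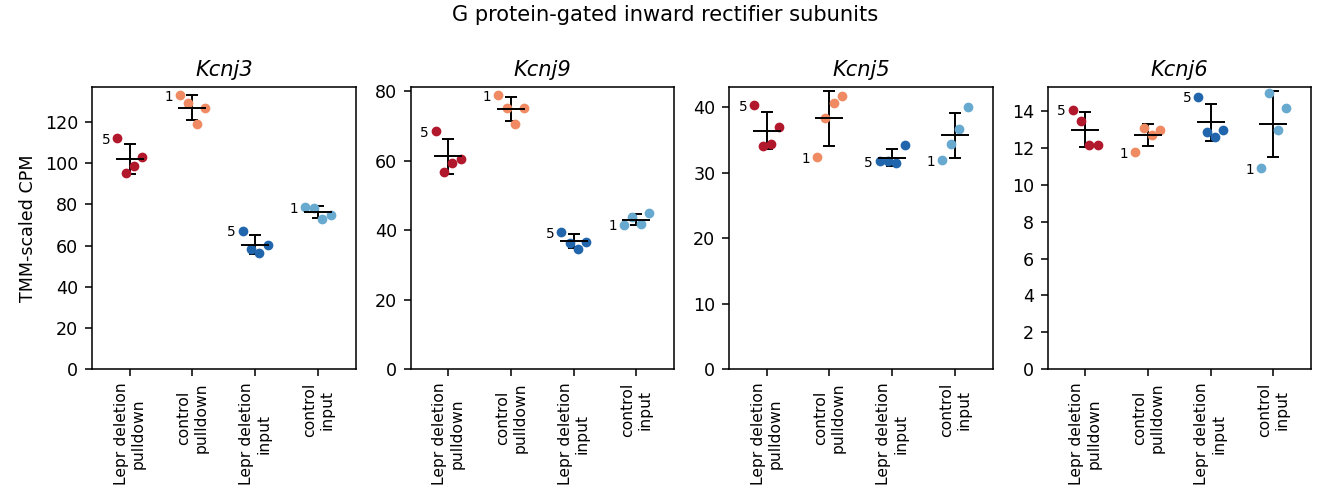
TMM-scaled CPM of the 4 GIRK subunits, with 1 point per pool in each of the 4 groups, the mean as a bar with SD (n = 4), and pools 5 and 1 numbered. Lepr-deletion pulldown at 95.0 to 112 CPM lies below control pulldown at 119 to 133 CPM for Kcnj3, and Kcnj6 overlaps between all groups.

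The other genes named in this comparison were not called. Kcnh2, the ERG channel pore, had 14.9, 12.4, 12.9 and 13.2 CPM in Lepr-deletion pulldown, against 14, 17.3, 19.0 and 18.1 CPM in control pulldown (log2 fold change -0.34 ± 0.10, adjusted p = 0.105, edgeR). Pool 5 and pool 1 overlapped there. Kcnq5, an M-current subunit, had -0.22 ± 0.07, with 22.4 to 27.8 CPM in Lepr-deletion pulldown and 26.7 to 29.7 CPM in control pulldown. On the positive side, Kcnab1 had 0.14 ± 0.06, Kcng3 0.33 ± 0.18 and Kcng4 0.40 ± 0.23, each with overlapping groups.

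The largest difference was that of Kcnj13, an inward rectifier of epithelia such as the choroid plexus that has also been linked to melanocortin receptor signalling in the hypothalamus. It had 0.674, 1.17, 3.25 and 0.778 CPM in Lepr-deletion pulldown, against 0.769, 0.417, 0.334 and 0.132 CPM in control pulldown. The groups overlapped and pool 7 stood highest (log2 fold change 1.85 ± 0.55, adjusted p = 0.111, edgeR), and without pool 7 the value was 1.09. In input it had 1.76, 2.50, 4.89 and 1.91 CPM in Lepr-deletion pools, against 1.72, 1.16, 1.47 and 0.498 CPM in control pools (1.19 ± 0.37, not called), and there the groups did not overlap. The summed level of 10 vascular markers was likewise highest in pool 7, at 14.9 CPM among 5.51 to 14.9 CPM in Lepr-deletion pulldown, against 4.68 to 7.26 CPM in control pulldown. The choroid plexus marker Ttr had 0.476 CPM in the pulldown of pool 7, within the control range of 0.23 to 0.665 CPM, and the 6 choroid plexus markers summed to 68.2 to 77.9 CPM in Lepr-deletion pulldown and 65.8 to 79.7 CPM in control pulldown. That sum includes 2 markers not called lower in pulldown than in input, so it does not measure choroid plexus tissue alone. The part of these markers in the Kcnj13 value was not tested, and Kcnj13 lies within the span of Gigyf2, whose reads cannot be told apart from it without strand.

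Input libraries gave a like picture. None of the 65 genes was higher in Lepr-deletion input and 1 was lower, again Kcnj3, where 0.135% of all genes tested were higher and 0.0959% lower. Kcnj3 had 56.3 to 67.3 CPM in Lepr-deletion input and 72.9 to 78.8 CPM in control input (log2 fold change -0.33 ± 0.06, adjusted p = 0.0299, edgeR), and the call was lost on leaving out any of pools 6, 7, 8, 2, 3 or 4. Kcnj9 had -0.23 ± 0.05 with no overlap and Kcnj10 -0.23 ± 0.05 with no overlap, and neither was called. The median of the 65 genes was -0.15 and 52 were negative, against 50.1% negative among genes of at least 1 CPM. At an unadjusted p under 0.05, 1 gene was higher and 22 were lower, and 14% of all genes tested had such a p. The 9 vascular markers tested were all positive in input, with a median of 0.50 and none called. Markers of the other cell types had medians from -0.04 to 0.15, and 1 astrocyte marker was called lower. The part of these markers in the channel values was not tested. DESeq2 called 4 genes lower, Kcnj3, Kcnj9, Kcnj10 and Kcnip4, where it called 1.04% of all genes lower. The Kcnj3 fall was thus not limited to the pulldown libraries, and the difference of enrichment between genotypes was 0.02 ± 0.08 for Kcnj3 and -0.06 ± 0.08 for Kcnj9.

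Pools 5 and 1 stood apart from the other pools of their genotype in both fractions. Relative to the control mean of each gene, the median over the 65 genes was 0.02, -0.19, -0.12 and -0.17 on the log2 scale in the pulldown of Lepr-deletion pools 5 to 8. It was -0.09, 0.03, 0.02 and 0.09 in the pulldown of control pools 1 to 4. In input the medians were 0.00, -0.20, -0.21 and -0.19 in Lepr-deletion pools 5 to 8 and -0.11, 0.04, 0.01 and 0.10 in control pools 1 to 4. Pool 5 thus lay near the control pools and pool 1 toward the Lepr-deletion pools, in input and pulldown alike.

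Single genes differed in this. Kcnc1 had 108, 88.9, 91.3 and 89.5 CPM in Lepr-deletion pulldown, against 90.7, 109, 115 and 119 CPM in control pulldown, where pool 5 was the highest of its genotype and pool 1 the lowest of its own. For Kcnj3, Kcnj9, Kcnip4 and Kcnab3, in contrast, pool 1 was the highest control pulldown library. Opposite to Kcnc1, 12 heat shock genes summed to 9510, 10500, 10700 and 10600 CPM in Lepr-deletion pulldown, against 10000, 9410, 9200 and 9260 CPM in control pulldown. Pool 5 was the lowest of its genotype and pool 1 the highest of its own. Of these, Dnajb1 (0.33 ± 0.05) and Hsph1 (0.27 ± 0.05) were called higher in Lepr-deletion pulldown. The 4 Y-linked genes summed to 67, 91.4, 70.8 and 155 CPM in Lepr-deletion pulldown and to 40.0, 83, 72.3 and 83.5 CPM in control pulldown, and none of them was called between genotypes in either fraction. The part of either list in the channel values was not tested.

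**Figure D5:**
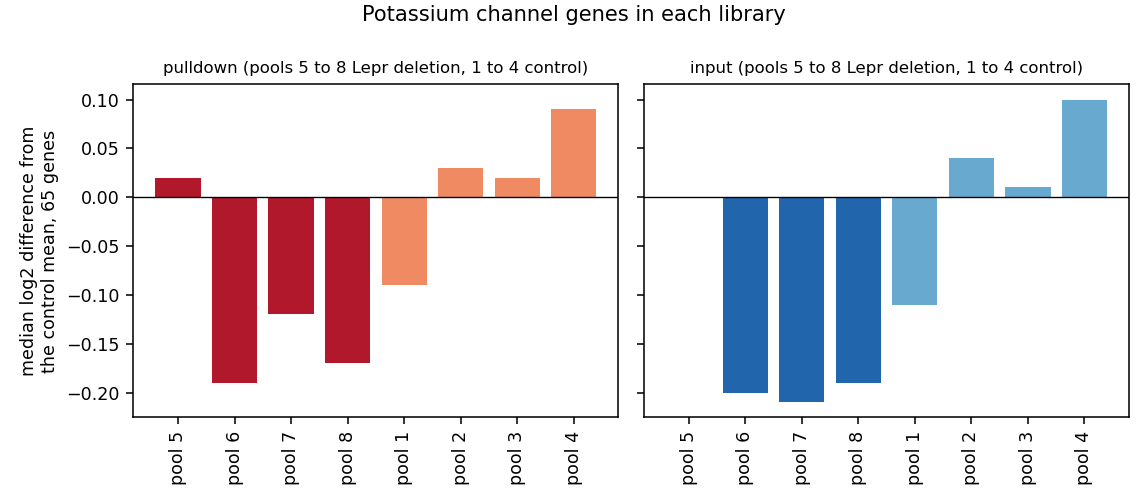
Median over the 65 genes of the log2 difference from the control mean, for pulldown (left panel) and input (right panel), with 1 bar per pool and Lepr-deletion pools 5 to 8 left of control pools 1 to 4. Pool 5 stands at 0.02 in pulldown and 0.00 in input while pools 6 to 8 stand between -0.12 and -0.21.

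Without the libraries of pools 1 and 5, 24 of the 65 genes were lower and 1 higher in Lepr-deletion pulldown, where 10.5% of all genes tested were called lower and 9.35% higher. In input 26 were lower and 1 higher, where 6.67% of all genes were called lower and 4.3% higher. This choice was made after the values were seen, and since the pools left out are, by the median of the 65 genes, those nearest the other genotype, it widens the difference by its construction. Without pool 5 alone 9 genes were lower in pulldown and 7 in input, where 3.69% and 1.23% of all genes were called lower. Without pool 1 alone 3 were lower in pulldown and 5 in input, where 1.72% and 1.36% of all genes were called lower. The gene called higher was Kcnj13. Those called lower in pulldown included Kcnj3 (-0.33), Kcnj9 (-0.31), Kcnq5 (-0.33), Kcnk1 (-0.42) and Kcnk9 (-0.31), named after their values were seen.

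The test of whether enrichment in pulldown differed between genotypes called none of the 65 genes, where 0.0108% of all genes tested were called. At an unadjusted p under 0.05, 2 of the 65 were positive and none negative in edgeR, where 8.96% of all genes tested had such a p. The 2 were Kcng4 at 0.86 ± 0.37 (adjusted p = 0.511, edgeR) and Kcnh6 at 0.47 ± 0.20. At the adjusted threshold DESeq2 also called none of the 65. The 4 Kcng modifiers were all positive, between 0.32 and 0.86, and Kcnu1 had the lowest value of the 65 at -0.53 ± 0.25. The median of the 65 genes was 0.04, and the 12 astrocyte markers were all positive with a median of 0.25 and none called. Markers of the other cell types had medians from -0.11 for microglia to 0.34 for oligodendrocyte precursors, and none was called. Genes called in 1 genotype and not in the other are therefore not shown to differ between genotypes.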

How the data were processed

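RNA was measured in pulldown and input libraries of mouse hypothalamus, 4 per group. Per the submitters' processing notes, the authors used Salmon 1.10.1, DESeq2 1.38.3 and the build GRCm38. The sources used here state neither trimming, nor the annotation release, nor whether reads were assigned by strand. The authors deposited estimated counts per gene, the same counts rescaled from TPM to the library total, TPM per gene, and a table of log2 fold changes and adjusted p-values.

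Estimated counts were rounded and tested with edgeR 4.0.16 in R 4.3.3 (quasi-likelihood test, two-sided, TMM scaling, filterByExpr with a minimum count of 10 and total of 15, Benjamini-Hochberg over all genes tested at 0.05). Each comparison used the libraries of its groups, and the difference of enrichment all 16. Levels are TMM-scaled CPM, and the floor of 3 counts was worth 0.032 to 0.0562 CPM, depending on the library. Reads carried no molecular identifiers in these tables, so the floor covers counting error only. Counts of within-group pairs differed by far more than counting noise (chi-square per degree of freedom 7.76 to 46.5). The code was tested on simulated data. Positions came from RefSeq (GRCm38.p6), matched by symbol for 92 of 92 genes.

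Alternatives were RLE factors, library totals, removal of mitochondrially encoded genes, no filter, DESeq2 1.42.0, rescaled counts, limma 3.58.1 on log2(TPM + 1) and log2(TPM + 0.1), 1 fit of all 16 libraries, each library left out, and the pool as a block. The extraction protocol ties pulldown and input of a pool to one lysate. Their deviations from group means correlated at -1.91e-05 to 0.179, with the own pool as best match in 6 of 8. The pools of the genotypes share no numbers.

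Genes and lists were chosen with earlier results of these data known. The genes named were those called between genotypes, the 5 highest and 5 lowest called genes without overlap in each enrichment, the most abundant gene of each subfamily, the 4 smallest p in each direction in pulldown, up to 4 genes per list, Lepr, Pnoc and Rpl10a, and, chosen after their values were seen, others where a family, a neighbour or a pool is described. Some genes that enter the counts are not reported here by name. Rpl10a was higher in pulldown by 0.17 ± 0.05 in Lepr-deletion pools and 0.25 ± 0.04 in control pools. Of the 12 heat shock genes, 7 were higher and 1 lower in pulldown in both genotypes, with Hspe1 (0.58), Hsp90aa1 (0.51), Dnajb1 (0.44) and Hspd1 (0.27) among the higher in control pools.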

Additional observations from a re-analysis of the deposited data

Results flagged for a closer look

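Of 132 groups of 4 libraries over the 33 channel genes named by rule and reported, 8 held 1 library whose gap to the nearest other exceeded Dixon's critical value for 4 samples, and chance gives about 1 in 20 such groups. In 4 of the 8 the library was of pool 5 and was the highest of its group. These were Kcna2 in Lepr-deletion input at 289 CPM (others 211 to 222), Kcnc1 in Lepr-deletion pulldown at 108 CPM (others 88.9 to 91.3) and in Lepr-deletion input at 90.2 CPM (others 64.4 to 68.3), and Kcnd2 in Lepr-deletion pulldown at 67.1 CPM (others 57.2 to 57.9). Kcnj10 in Lepr-deletion input was high in pool 8 at 265 CPM (others 234 to 238), and Kcnk13 in Lepr-deletion input in pool 7 at 2.83 CPM (others 2.06 to 2.16). Kcnk10 in Lepr-deletion input was low in pool 6 at 2.59 CPM (others 3.57 to 3.64). Kcnf1 in control pulldown was high in pool 4 at 29.2 CPM (others 24.9 to 25.5).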

How the results depend on the processing

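Calls in the genotype comparisons rest on few genes and moved with the settings. In Lepr-deletion against control pulldown the genes called lower numbered 2 without a filter and in the fit of all 16 libraries, 3 in DESeq2, and 0 on rescaled counts and in limma on log2(TPM + 1) and on log2(TPM + 0.1). Of all genes tested, 130 of 27163 were lower without a filter, 215 of 18530 in the fit of all 16 libraries and 458 of 16859 in DESeq2. On rescaled counts 5 of 18020 were lower, and in limma 9 and 6 of 16859 with the 2 pseudocounts. The channel genes called lower ranged from 0 to 9, and those called higher from 0 to 1, as 1 library was left out. Over all genes these fits called 6 to 631 lower and 12 to 631 higher. In input the channel genes called lower numbered 2 without a filter (with 1 higher), 4 in DESeq2, and 0 on rescaled counts and in limma with either pseudocount, and ranged from 0 to 7 as 1 library was left out. Of all genes tested, 122 of 28847 were lower and 139 higher without a filter, and 184 of 17735 were lower in DESeq2. On rescaled counts 1 of 18355 was lower, in limma 1 and 0 of 17735. As 1 library was left out, 6 to 246 of all genes were lower. Without pools 1 and 5, an alternative chosen after seeing the data, 24 were lower and 1 higher in pulldown, and 26 lower and 1 higher in input. There 10.5% of all genes were lower and 9.35% higher in pulldown, and 6.67% lower and 4.3% higher in input. Kcnj3 kept its sign in every fit run, between -0.36 and -0.28 in pulldown and -0.39 and -0.30 in input as 1 library was left out.

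In pulldown over input, library totals gave 50 higher and 3 lower in Lepr-deletion pools and 50 higher and 4 lower in control pools. Limma gave 58 higher and 3 lower in Lepr-deletion pools and 56 higher and 4 lower in control pools, with either pseudocount, where 70.9% of all genes were higher in Lepr-deletion pools and 72.3% in control pools on log2(TPM + 1). On that scale 2341 of 17423 genes were lower in Lepr-deletion pools and 2368 of 17570 in control pools. These settings raise the median of all genes. Under limma on log2(TPM + 1) and log2(TPM + 0.1), sign changed in Lepr-deletion pools for Kcnn3 (0.43 and 0.46), Kcnt1 (0.78 and 0.91), Kcnmb4 (0.31 and 0.34), Kcnk10 (0.16 and 0.23), Kcnt2 (0.29 and 0.34), Kcnn2 (0.54 and 0.59), Kcns3 (0.14 and 0.21) and Kcng4 (0.02 and 0.05), and in control pools for Kcnn3 (0.35 and 0.38), Kcnt1 (0.80 and 0.92), Kcnmb4 (0.40 and 0.44), Kcnk13 (0.11 and 0.18), Kcnq3 (0.64 and 0.66), Kcnb2 (0.63 and 0.72), Kcnn2 (0.33 and 0.36), Kcnk10 (0.15 and 0.21), Kcng3 (0.12 and 0.19) and Kcns3 (0.23 and 0.38). Kcnt1 was 0.01 on rescaled counts in Lepr-deletion pools. On library totals, Kcnt2 (0.13) and Kcnn2 (0.01) changed sign in Lepr-deletion pools, and Kcnmb4 (0.03), Kcnq3 (0.25), Kcnb2 (0.23) and Kcnn2 (0.02) in control pools. Sign also changed for genes near 0 as 1 library was left out, for Kcns2 (-0.03 to 0.11) and Kcnu1 (-0.08 to 0.11) in Lepr-deletion pools and Kcnh7 (-0.03 to 0.03) in control pools, and without pools 1 and 5 for Kcns2 (-0.01) and Kcnu1 (-0.10) in Lepr-deletion pools. The cause of the remaining changes was not tested. As 1 library was left out, 26 to 33 genes were higher and 10 to 12 lower in Lepr-deletion pools. In control pools 25 to 34 were higher and 14 to 16 lower. Among genes named here, calls in Lepr-deletion pools were lost for Kcnk1 and Kcnj5 (5 of 8 fits each), Kcnk9 (4), Kcnc2 (3) and Kcng4 (2). In control pools they were lost for Kcnb2 (6 of 8 fits), Kcnma1 (4) and Kcnu1 (2).

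With pool as a replicate block, 33 genes were higher and 14 lower in Lepr-deletion pools, and 34 higher and 17 lower in control pools, where 30.1% of all genes were higher and 33.3% lower in Lepr-deletion pools and 33.1% higher and 36.2% lower in control pools. Of the 65, none was called in the difference of enrichment. The block added the calls of Kcnh2, Kcnh7, Kcna1, Kcnq3 and Kcnj13 in Lepr-deletion pools and of Kcnc2, Kcnd2, Kcnd3, Kcnh5, Kcnmb2 and Kcnt2 in control pools, and removed none.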

Other observations

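The authors' deposited table held a log2 fold change and adjusted p for all 65 genes of at least 1 CPM. In the authors' deposited table, 33 were higher and 11 lower in pulldown of Lepr-deletion pools, and 30 higher and 15 lower in control pools. Between genotypes the authors' deposited table gave 3 genes lower in Lepr-deletion pulldown, Kcnj3 (-0.30), Kcnj9 (-0.28) and Kcnh2 (-0.34), and 4 lower in Lepr-deletion input, Kcnj3 (-0.33), Kcnj9 (-0.22), Kcnj10 (-0.22) and Kcnip4 (-0.17). The shares of all genes called by the authors were not counted, so these counts are not shown to be particular to channel genes.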
